A study of Mus musculus with 13 samples.

Results

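Arpp21, Smoc1, Slc6a19, Adam12, Slc7a11, Capn3, Spo11, Endou, Atg4a and P2rx1 are 10 protein-coding genes, of 57010 genes in the list, that were picked as leading genes of resting double-positive (DP) thymocyte clusters, although most of them are better known from other tissues. In the clusters formed here, Smoc1, Slc6a19, Slc7a11 and Capn3 were among the 10 leading genes of a thymic DP-R-like cluster (the resting DP cells named below) and the other members were not. They were chosen by their measured levels in these cells, so their level in DP cells is described here without a test, and what was left to describe was their order along maturation, their joint detection in single cells and their level in the further samples that shared the plate. The thymic samples were single thymic lobes of female C57BL/6N mice aged 2 months, untreated as far as the sources state. Each Parse kit received both lobes of 2 mice, which gave 4 lobe samples in the Parse WT library and 4 lobe samples of other mice in the Parse Mini library. Lobes of 1 mouse are technical replicates, so the spread over 4 samples holds the spread of only 2 animals. The Parse WT library also held 16 further samples, named CVS_C_1 to 5, CVS_S_1 to 6 and YD_C_1 to 5. For these 16 samples the labels name thymus and spleen, young and adult mice, control and chronic stress, but do not say which sample had which, so they are given by name without a group. The study's own text calls these samples non-thymic.

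The Parse kits fix and permeabilise cells and label their RNA in situ, well by well, so that each cell carries a combination of well barcodes. Levels are unique molecular identifiers (UMIs) scaled to counts per 1e6 UMIs outside ribosomal RNA (CPM). After quality control the Parse WT thymic samples held 39369 cells, with sample medians of 2912 to 3900 UMIs per cell, and the Mini samples 19273 cells, with medians of 2306 to 3078.5. The 16 other samples held 81396 cells, with medians of 1525 to 7291. Of the cell barcodes, 460 occurred in both libraries (128624 barcodes in Parse WT and 20085 in Mini), which were made from separate plates.

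Double-positive thymocytes carry both coreceptors, CD4 and CD8. They arise from dividing CD4-CD8- (double-negative, DN) precursors, stop dividing and express Rag1 and Rag2, the recombinase that rearranges the T-cell receptor alpha genes. Cells whose receptor is engaged turn Rag1 off and the nuclear factor Tox on as they pass through selection towards the single-positive (SP) CD4+ or CD8+ stage. Rag1 and Tox therefore served as the 2 reference points.

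The members have little in common in their known roles. Arpp21 is a cAMP-regulated phosphoprotein with RNA-binding domains, known from striatal neurons. Smoc1 is a secreted calcium-binding matrix protein of the SPARC family. Slc6a19 carries neutral amino acids into intestinal and kidney epithelium, and Slc7a11 exchanges extracellular cystine for glutamate. Adam12 is a membrane-anchored metalloprotease, Capn3 the calcium-activated protease of skeletal muscle, and Atg4a a protease that processes Atg8-family proteins in autophagy. Spo11 makes the DNA breaks that start meiotic recombination, Endou is an endoribonuclease that cuts at uridines, and P2rx1 is an ATP-gated cation channel of platelets and smooth muscle.

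The members were on 9 chromosomes, and only Capn3 and Spo11 shared one (coordinates in GRCm38, GENCODE M21). Arpp21 lay at chr9:112065091-112235938 on the minus strand, Smoc1 at chr12:81026808-81186414 on the plus strand and Adam12 at chr7:133883199-134232146 on the minus strand. Slc6a19 lay at chr13:73679745-73704865 and Slc7a11 at chr3:49892526-50443614, both on the minus strand. Capn3 (chr2:120456019-120504913) and Spo11 (chr2:172977700-172993576) were on the plus strand, Endou (chr15:97711015-97731339) on the minus strand, and Atg4a (chrX:140956907-141164270) and P2rx1 (chr11:72999103-73015200) on the plus strand. Some members share exonic sequence with a neighbour, so that some reads could have been given to either gene. Capn3 overlaps Ganc on the same strand (42.7 CPM in the Parse WT thymic samples), Arpp21 overlaps the opposite-strand lincRNA 2900079G21Rik (34.5 CPM) and Slc6a19 the antisense RNA Slc6a19os (3.48 CPM). The reference gene Rag1 also overlaps a neighbour on the same strand, B230118H07Rik, at 322 CPM in the Parse WT and 366 CPM in the Mini thymic samples. The sources used here do not state whether counting used the strand.

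The reference tables held a RefSeq promoter window (GRCm38.p6) for 6 of the 10 members and none for Smoc1, Adam12, Spo11 and Endou. The 250 bases before the start site are printed for 3 members that fell along maturation, though not at 1 position, and whose window held a searched motif, in capitals. Starts are those of the RefSeq table, and for these 3 the bases after the start did not match the first bases of a GENCODE M21 transcript exactly. The Slc7a11 window begins at the end of the gene span given above, whereas the Arpp21 and Capn3 windows lie inside theirs. The motifs searched, on both strands, were the E-boxes CAGCTG and CAGGTG, the Runx core TGTGGT and the nuclear receptor half-site AGGTCA. The composite element TGATGNAA and the antioxidant response core TGACNNNGC were searched too. Each was in 3.4 to 17.3% of all windows. The windows of the falling members Slc6a19 and P2rx1 held none of them, and that of Atg4a held AGGTCA. The Slc7a11 window held TGATGNAA, the composite element to which Atf4 binds with C/EBP factors, in both orientations, at 66 to 59 and 47 to 40 bases before the start, and 3.4% of 32536 windows of the same length held it. The Arpp21 window, 1 of 9 listed starts, held the Runx core TGTGGT on the opposite strand (14% of windows), and the Capn3 window, 1 of 2, held the E-box CAGCTG (13.1% of windows). These matches describe letters and show no binding.
Slc7a11, chr3:50443614-50443863, minus strand: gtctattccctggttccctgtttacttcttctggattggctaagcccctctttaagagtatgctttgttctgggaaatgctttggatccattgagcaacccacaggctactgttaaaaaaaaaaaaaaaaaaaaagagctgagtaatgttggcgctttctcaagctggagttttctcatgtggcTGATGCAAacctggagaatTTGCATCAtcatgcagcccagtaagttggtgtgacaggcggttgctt
Arpp21, chr9:112233723-112233972, minus strand: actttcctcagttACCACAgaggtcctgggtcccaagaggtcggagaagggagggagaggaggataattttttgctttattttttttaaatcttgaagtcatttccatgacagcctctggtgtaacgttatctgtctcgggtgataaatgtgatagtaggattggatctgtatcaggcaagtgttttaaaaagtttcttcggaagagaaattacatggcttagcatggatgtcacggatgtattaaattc
Capn3, chr2:120463343-120463592, plus strand: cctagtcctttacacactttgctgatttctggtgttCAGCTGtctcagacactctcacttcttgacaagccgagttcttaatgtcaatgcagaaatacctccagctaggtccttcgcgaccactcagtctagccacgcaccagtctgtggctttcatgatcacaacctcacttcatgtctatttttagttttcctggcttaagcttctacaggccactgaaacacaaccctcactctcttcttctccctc

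An intron of Arpp21 also holds Mir128-2 on the same strand. It was listed with 0 UMIs in both libraries. Its mature sequence is shown because its gene lies inside the member with the highest level in these cells, with the seed, bases 2 to 8, in capitals.
miR-128-3p, chr9:112118644-112118664, minus strand (RefSeq, GRCm38.p6): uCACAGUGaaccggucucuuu

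Over all cells of a sample, Arpp21 stood far above the other 9 members, and 9 of the 10 members were higher in each of the 4 Parse WT thymic samples than in each of the 16 other samples. Of 28451 genes tested, 8.7% showed that pattern, and Atg4a was the exception. The choice of the members as leading genes of resting DP thymocyte clusters favoured this direction, so nothing is read from the count. A level over all cells joins the share of DP cells with the RNA of the gene per cell, which cannot be told apart on this scale.

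Arpp21 was at 4140, 4004, 3785 and 3513 CPM in the samples Parse WT 1 to 4, and at 4886, 4854, 4795 and 4901 CPM in Mini 1-A, 1-B, 2-A and 2-B. The 2 kits did not overlap, and the Mini samples differed among themselves by far less (SD 47 CPM, against 274 CPM in Parse WT, n = 4 each). UMIs of Arpp21 were found in 81.3 to 91.9% of the Parse WT and in 90.9 to 92.1% of the Mini cells.

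The proteases Adam12 and Capn3 and the matrix protein Smoc1 differed in level. Adam12 was at 467, 447, 412 and 337 CPM in Parse WT 1 to 4 and at 499, 544, 433 and 467 CPM in the Mini samples in the same order, so the kits overlapped. Smoc1 was at 166, 185, 192 and 138 CPM in Parse WT and at 254, 303, 208 and 222 CPM in Mini, where every sample was above every Parse WT sample. Its highest Mini sample, 1-B, was also the highest for Adam12. Capn3 was lower, at 53, 47.8, 54 and 41.8 CPM in Parse WT and 59.1, 61.7, 58.5 and 65.5 CPM in Mini, without overlap.

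The transporters differed several-fold from each other. Slc7a11 was at 323, 331, 292 and 260 CPM in Parse WT and at 342, 353, 345 and 380 CPM in Mini. Slc6a19 was at 43.2, 30.4, 42.5 and 30.9 CPM in Parse WT and at 46.7, 47.8, 51.5 and 60.1 CPM in Mini. Both were higher in every Mini sample, but the gap between the kits was small beside the spread within each.

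The nucleic acid enzymes Spo11 and Endou followed the same order of kits. Spo11 was at 118, 104, 97.4 and 77.2 CPM in Parse WT and at 155, 151, 126 and 140 CPM in Mini. Endou was at 221, 205, 218 and 184 CPM in Parse WT and at 275, 267, 258 and 270 CPM in Mini. Parse WT 4 was the lowest of the 8 thymic samples for both. P2rx1, the lowest member, was at 21.6, 20.9, 23.1 and 19.9 CPM in Parse WT and at 25.6, 25, 22.9 and 27.8 CPM in Mini, and Mini 2-A fell within the Parse WT range.

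Atg4a behaved unlike the rest. It was at 193, 433, 217 and 448 CPM in Parse WT 1 to 4, so that samples 2 and 4 were far above samples 1 and 3, and at 312, 239, 361 and 312 CPM in Mini. The SD over the Parse WT samples was 136 CPM, 42.2% of the mean, where no other member exceeded 19.2%.

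Of the 10 members, 7 were higher in every Mini than in every Parse WT thymic sample (background 7.06% of 24368 genes, with 7.23% lower), and Adam12, Atg4a and P2rx1 overlapped. The ratio of the Mini to the Parse WT mean was 1.26 for Arpp21, 1.45 for Smoc1, 1.4 for Slc6a19, 1.44 for Spo11 and 1.29 for Endou, and Rag1 had 1.32. The kits also differed in the animals, the plate and the share of cells in the resting DP class described next (34.3% in Parse WT and 47.3% in Mini), which cannot be told apart here.

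**Figure D1:**
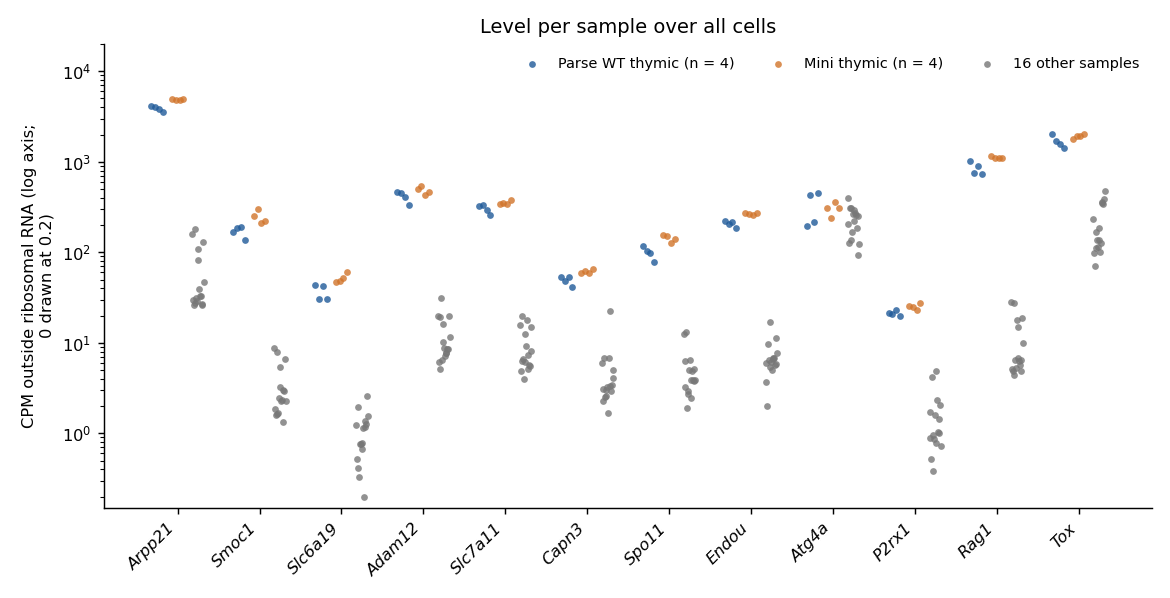
Level of each member, Rag1 and Tox over all cells of a sample, in CPM outside ribosomal RNA on a log axis, with 1 point per sample for the 4 Parse WT thymic, 4 Mini thymic and 16 other samples (0 drawn at 0.2). The thymic points lie above all other samples for every gene except Atg4a, whose other samples span 94.1 to 394 CPM.

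Cells were clustered without the 10 members as features, and clusters were named from fixed markers. The resting DP class, called DP-R-like, held 13515 Parse WT and 9108 Mini cells. Its markers fitted the label. Rag1 was at 1346 to 1857 CPM over the Parse WT samples, Cd4 at 733 to 1027, Cd8a at 557 to 786 and Cd8b1 at 352 to 486 CPM, while the division marker Mki67 was at 56.1 to 198 CPM, against a mean of 1483 in the Cycling-like class. Of the 9 DP-R markers, Ccr9 was the 1 with a higher mean in another class in both kits (DP-S-like, the class of cells under selection). In Parse WT, 1 cluster of 776 cells in the class came from 1 sample only. Some thymic clusters met no naming rule and are in no class, so the share of the class depends on that rule. The largest had 4385 cells in Parse WT, with Arpp21 at 4132 and Rag1 at 827 CPM. In Mini the largest had 587 cells, with Arpp21 at 4816 and Rag1 at 1178 CPM.

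In this class Arpp21 averaged 5501 CPM in Parse WT and 6689 CPM in Mini, Adam12 718 and 794, Slc7a11 499 and 588, Smoc1 360 and 481 and Endou 289 and 374 CPM. Spo11 averaged 178 and 248 CPM, Capn3 84.5 and 105, Slc6a19 71.8 and 93.5, and P2rx1 39.8 and 45 CPM. Thus each of these 9 was highest in the DP-R-like class among the named classes of both kits, and Atg4a, at 350 and 320 CPM, was not. Because the members were picked as leading genes of such clusters, this count says nothing new, and 7.05% of genes in Parse WT and 10.7% in Mini also had their highest mean there.

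Divided by the length of its exons, the order changed. In the DP-R-like class of Parse WT, Arpp21 had 316 CPM per exon kilobase, above Rag1 with 237, followed by Atg4a with 132, Endou with 105, Smoc1 with 103, Adam12 with 67.9, Spo11 with 45.4, Slc7a11 with 35.8, Capn3 with 16.8, P2rx1 with 15.2 and Slc6a19 with 14.3. In Mini the same scale gave 384 for Arpp21, 303 for Rag1, 138 for Smoc1, 136 for Endou, 120 for Atg4a and 75.1 for Adam12. The study classed more Parse transcripts as unspliced than as spliced, so intronic reads may be part of these counts. The order depended on the divisor. Per kilobase of gene span, Rag1 had 139 and Arpp21 32.2 CPM in Parse WT (179 and 39.2 in Mini). On that scale Endou (14.2) and Spo11 (11.2) were above Smoc1 (2.26), Adam12 (2.06) and Atg4a (1.69) in Parse WT. Both scales compare genes only roughly.

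The difference between the kits remained within the class for 5 members. Arpp21 was at 4986 to 6156 CPM in the Parse WT and at 6538 to 6794 CPM in the Mini DP-R-like cells, and Slc7a11, Capn3, Spo11 and Endou were likewise higher in every Mini sample (6.31% of 17630 genes were, and 5.8% were lower, among them none of the members). For Slc7a11 the gap was narrow, with 563.8 CPM as the highest Parse WT and 564.1 CPM as the lowest Mini value. Smoc1, Slc6a19, Adam12, Atg4a and P2rx1 overlapped. Rag1 was higher and Tox lower in every Mini sample within the class, with Tox at 1078 to 1321 CPM in Parse WT and 1027 to 1072 CPM in Mini.

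The members differed in how much of their DP-R-like level the remaining classes had. Arpp21 and Endou were also high in the DN-like and Cycling-like classes, though, as given below, not only there. The Cycling-like class is not made of precursors alone. Its Parse WT cluster of 3076 cells also had raised SP-CD4 markers, with Tox at 1653 CPM. In the DN-like class Arpp21 reached 77.2% of its DP-R-like mean in Parse WT and 81.3% in Mini, and in the Cycling-like class 73.1% and 75.4%. Endou reached 54.9% and 52.9% in the DN-like and 75.6% and 73.8% in the Cycling-like class. Smoc1 was at 28.6% and 30% in the DN-like and at 29.8% and 30.8% in the Cycling-like class, near Rag1 (37.3 and 37.9% DN-like, 42.6 and 40.9% Cycling-like). Within the Cycling-like class, a Parse WT cluster of 1892 cells led by the replication genes Rrm2, Pclaf and Clspn had 3923 CPM of Arpp21 and 196 CPM of Endou but 18 CPM of Smoc1, 7.71 CPM of Slc6a19, 13.2 CPM of Capn3 and 25.2 CPM of Spo11. Adam12 was at 137 CPM, Slc7a11 at 159 CPM and Rag1 at 326 CPM in that cluster. Mini did not repeat such low levels. Its cluster of 1636 cells with Rrm2 and Pclaf among the leading genes had 98.6 CPM of Smoc1, 21.1 of Slc6a19, 27.8 of Capn3 and 72.6 of Spo11. The larger Parse WT Cycling-like clusters, of 3548 and 3076 cells, had Smoc1 at 134 and 118 CPM.

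After selection the order was another. In the DP-S-like class Adam12 was at 51.2% of its DP-R-like mean in Parse WT and 68.1% in Mini, the highest of the 9. Smoc1 was at 22.2% and 44.3%. The Parse WT value of Adam12 was near those in the SP-CD4-like (50.9%), Other CD3+-like (53.4%) and Neutrophil-like (55.1%) classes. In the later SP-CD4-like class of Parse WT the 9 were at 41.9 to 54.2%, against 22.2 to 51.2% in the DP-S-like class. Class means there thus did not fall steadily with stage, but the SP-CD4-like class of Parse WT joined unlike clusters. A cluster of 3680 cells in it had Arpp21 at 2944, Smoc1 at 177 and Rag1 at 791 CPM. A cluster of 1801 cells in it had them at 537, 26.3 and 129 CPM. In Mini the 9 were at 35.4 to 42.8% in the SP-CD4-like class, against 40.1 to 68.1% in the DP-S-like class. In the Parse WT cluster with the highest Tox level, 6429 CPM, Adam12 was at 278 CPM, Arpp21 at 530 CPM, Smoc1 at 28.3 CPM, Slc7a11 at 40.6 CPM and Rag1 at 80 CPM.

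Classes that should lack these genes did not read 0. In the B-like class of Parse WT (697 cells) the 9 members other than Atg4a were at 34.5 to 47.9% of their DP-R-like means, with Rag1 at 34.7%. In the DC-like class (305 cells) they were at 15.1 to 34.3%, with Rag1 at 20.3%, and in the Erythroid-like class (302 cells) at 63.3 to 95.6%, with Rag1 at 69.9%. In the Mini B-like class (130 cells) they were at 21.5 to 41.4%, with Rag1 at 28.9%. The B-cell genes Pax5 and Ebf1 averaged 681 and 1461 CPM in the Parse WT B-like class, and 15.9 and 36.7 CPM in the DP-R-like class. In Mini they averaged 810 and 1452 CPM in the B-like class, and only 0.511 and 2.17 CPM in the DP-R-like class. Doublets were not removed. Without the 5% of cells with most simulated doublets nearby, Arpp21 in the B-like class went from 2514 to 2296 CPM in Parse WT and from 2338 to 1949 CPM in Mini, and Rag1 from 542 to 513 and from 580 to 500 CPM. In the DC-like class Arpp21 went from 1453 to 1246 CPM in Parse WT, but from 2052 to 2363 CPM in Mini, where Slc7a11 (215 to 251), Spo11 (64.9 to 81.3) and Endou (108 to 129 CPM) were also higher without those cells. In the DN-like and Cycling-like classes of Parse WT, Arpp21 and Endou lay above every B-like percentage, whereas Smoc1, Slc6a19, Spo11, Capn3 and P2rx1, at 26 to 42%, did not pass the 47.9% of the B-like class. Slc7a11 passed it in the Cycling-like class (53.8%) but not in the DN-like class (35%), and Adam12 in neither (42.8% and 31.2%). These comparisons hold against the B-like class only. Arpp21 was at 77.2% in the DN-like and 73.1% in the Cycling-like class, beside 75.9% in the Erythroid-like and 60.5% in the Neutrophil-like class (230 cells). Endou was at 54.9% and 75.6%, beside 95.6% and 74.4%.

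The share of cells with a UMI was compared after each cell was thinned to 1000 UMIs. In the DP-R-like class of Parse WT, UMIs of Arpp21 were found in 98.2 to 98.9% of cells over the 4 samples, of Slc7a11 in 31 to 35.8%, of Adam12 in 28.3 to 37.1%, of Endou in 22.3 to 26.5% and of Smoc1 in 21.1 to 26.7%. Spo11 was found in 12.9 to 17.4% of cells, Capn3 in 6.91 to 8.7%, Slc6a19 in 6.11 to 8.01% and P2rx1 in 3.52 to 5%. In the B-like class at the same depth Arpp21 was found in 34.4 to 81.5%, Slc7a11 in 8.33 to 21.5% and Smoc1 in 3.12 to 15.6% of cells. Other classes came closer. In the Neutrophil-like class (191 cells) Slc7a11 was found in 30.4 to 38.9% of cells, and in the Erythroid-like class (193 cells) Arpp21 in 76.9 to 98.5%, Slc7a11 in 18.9 to 39% and Smoc1 in 7.69 to 26%, which reach the DP-R-like ranges. The thinning left out 16.6% of Parse WT and 15.5% of Mini cells, which were shallower. Without thinning, Smoc1 was found in 30.7 to 37.7% and P2rx1 in 7.36 to 10.8% of the DP-R-like cells of Parse WT.

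**Figure D2:**
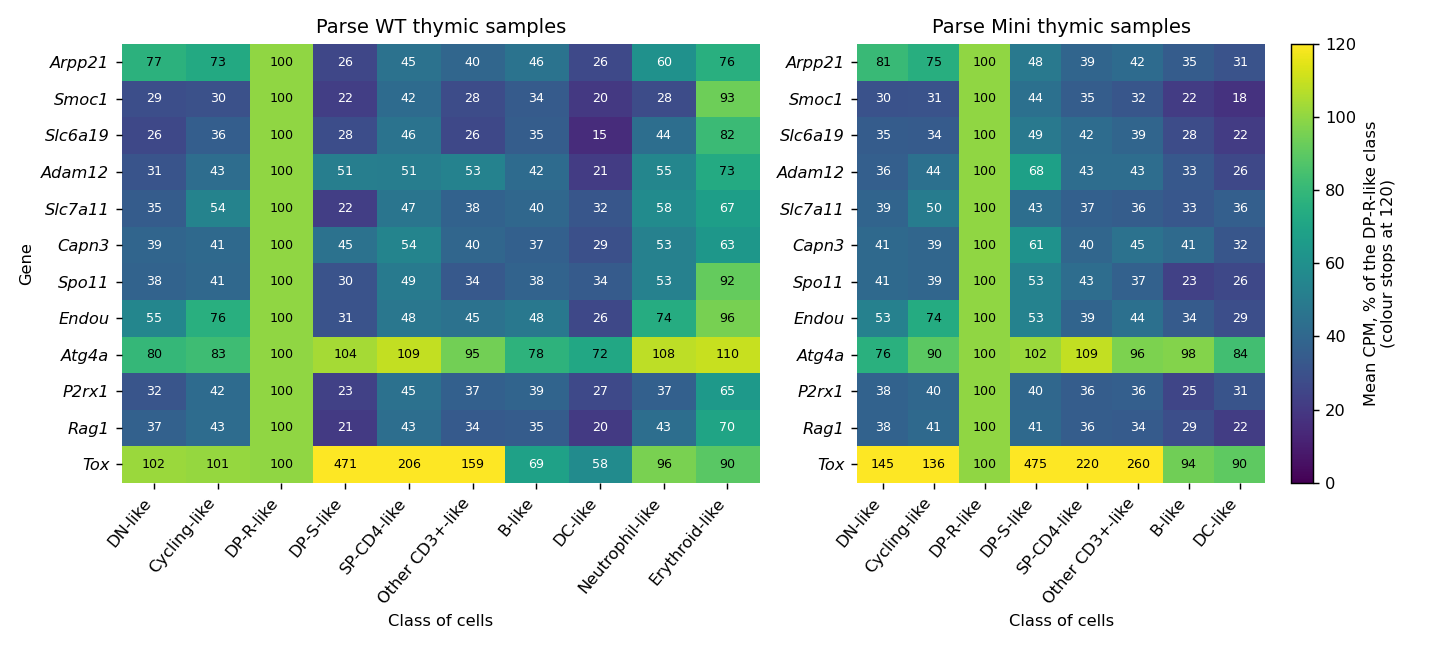
Mean CPM of each gene in each named class as a percentage of its mean in the DP-R-like class, over 4 samples per kit, written in each cell of the map. Arpp21 and Endou stay bright in the DN-like and Cycling-like columns, Adam12 is the highest of the members other than Atg4a in the DP-S-like column, and the Atg4a row is nearly flat.

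To order the members relative to Rag1 and Tox, cells with few cycling and non-T UMIs were ranked within each sample by the share of late genes (such as Cd69, Cd5, Ccr7 and S1pr1) among early plus late genes (such as Rag2 and Dntt), and cut into 10 bins. Neither list held a member, Rag1 or Tox. The axis held 9303 Parse WT and 6696 Mini cells, and a gene's position is its mean bin weighted by CPM. A gene that does not change lies near the middle of the axis, at about 5.5.

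All members except Atg4a were lower at the late end of the axis, as Rag1 was. In the latest bin 9 of the 10 had less than 50% of their mean over the 3 earliest bins in both kits, against 14.7% of 15429 genes in Parse WT and 14.2% of 14084 genes in Mini. Because the members were picked as leading genes of resting DP clusters, that choice largely fixed this direction and nothing is read from the count. Rag1 was at position 3.87 ± 0.25 in Parse WT and 3.99 ± 0.10 in Mini (SD, n = 4), and Tox at 6.98 ± 0.18 and 7.19 ± 0.15. In Parse WT 9 of the 10 members lay between Rag1 and Tox by their means (Smoc1 did not), and in Mini 8 did (Smoc1 tied with Rag1 at this precision, and P2rx1 lay before it by less than its spread). Of all genes, 92.1% in Parse WT and 92.6% in Mini lay there too, since a gene with an even level falls between these points, so the count says nothing particular about the members. For several of them the difference from Rag1 was smaller than the spread over samples.

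Adam12 and Capn3 had the latest positions of the 9 falling members, and the highest remainders at the end of the axis. Adam12 was at 4.37 ± 0.17 in Parse WT and 4.51 ± 0.13 in Mini, on average 0.50 and 0.52 bins after Rag1, and after it in 4 of 4 samples of each kit. Capn3 was at 4.38 ± 0.28 and 4.49 ± 0.12, on average 0.51 and 0.50 bins after Rag1, again in 4 of 4 samples. In the latest bin Adam12 still had 16.2% (Parse WT) and 19.8% (Mini) of its mean over the 3 earliest bins and Capn3 14.7% and 20.6%, where Rag1 had 4.18% and 4.34%. In bin 7 of Mini, Adam12, at 63.3%, was below Arpp21 (67.6%) and Endou (67.8%).

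Arpp21, Endou and Spo11 had positions in between. Arpp21 was 0.23 and 0.30 bins, Endou 0.27 and 0.28 bins and Spo11 0.22 and 0.26 bins after Rag1, each in 4 of 4 samples of both kits. Arpp21 went from 5622 CPM over the first 3 bins to 2865 CPM in bin 7, 1162 CPM in bin 9 and 322 CPM in bin 10 of Parse WT. The 3 genes did not differ from each other beyond the spread over samples. Slc7a11 was 0.11 bins after Rag1 in both kits, and after it in 4 of 4 samples of each, by as little as 0.01 bins in Mini. These small differences depended on the measure. When positions were taken from the share of thinned cells with a UMI, Spo11 (4.11) lay before Rag1 (4.16) in Parse WT, as did Smoc1, Slc6a19 and P2rx1. In Mini Spo11 (4.32), Endou (4.31) and Slc7a11 lay before Rag1 (4.33), again with Smoc1, Slc6a19 and P2rx1. Arpp21 (4.64 in Parse WT and 4.79 in Mini), Adam12 (4.82 and 4.90) and Capn3 (4.37 and 4.67) stayed after Rag1 in both kits. The share of Arpp21 was near its limit, at 98.2 to 98.9% of thinned DP-R-like cells of Parse WT and 98.6 to 99.5% of Mini. Such a share falls later than the level, so the place of Arpp21 on this measure says little about its order.

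Smoc1, P2rx1 and Slc6a19 could not be set apart from Rag1. Smoc1 differed from Rag1 by -0.01 and 0.00 bins and P2rx1 by 0.01 and -0.01 bins, each after Rag1 in 2 of 4 samples of each kit. Slc6a19 was 0.13 and 0.07 bins after Rag1, in 3 of 4 Parse WT and 2 of 4 Mini samples. With 21.4 CPM over all cells, P2rx1 had the widest spread, from 3.15 to 4.29 in Parse WT.

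Atg4a was at 5.47 ± 0.16 and 5.54 ± 0.09, close to the middle of the axis, and bin 10 had 97.9% and 94.9% of its level in the first 3 bins. Its place between Rag1 and Tox thus went with an even level along the axis. Among neighbours in the order of means, the ranges over samples did not overlap at the steps to Atg4a (from Capn3 in Parse WT and from Adam12 in Mini), from Atg4a to Tox and, in Mini, from Slc7a11 to Spo11. All other neighbours overlapped.

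**Figure D3:**
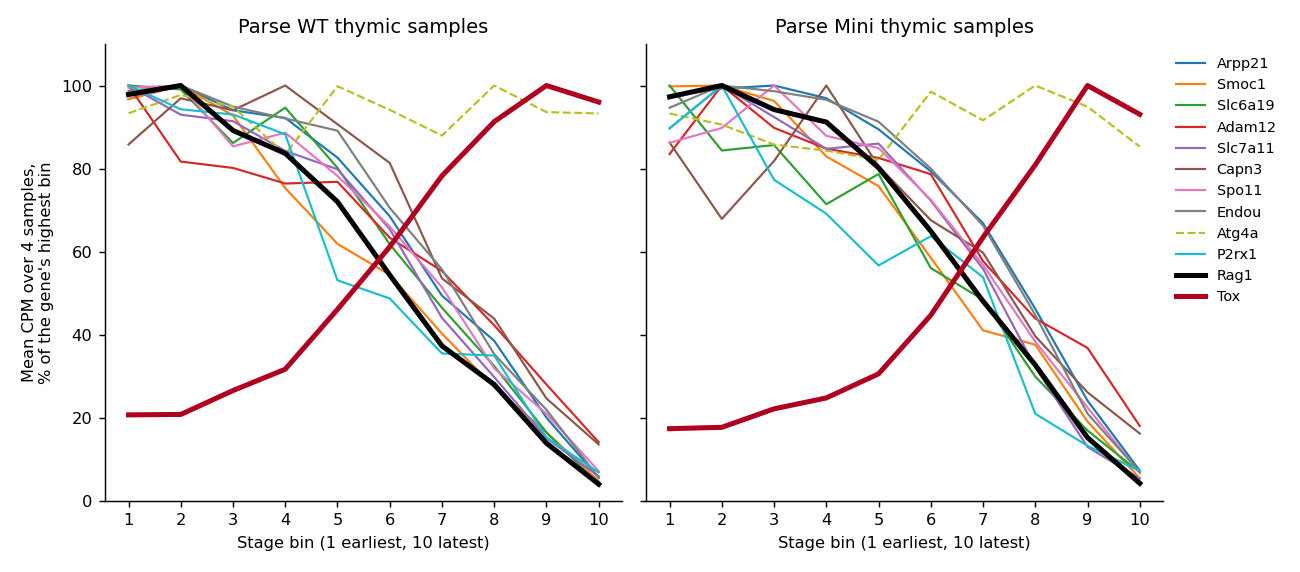
Mean CPM over 4 samples in each of 10 stage bins, as a percentage of the gene's highest bin, for the members, Rag1 (black) and Tox (dark red). The members other than Atg4a fall beside Rag1, with Adam12 and Capn3 the highest of them in bin 10, Tox peaks in bin 9, and Atg4a (dashed) is even.

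Within the DP-R-like class, the members were set against each other pair by pair. For each of 45 pairs, the number of cells with both genes was divided by the number expected from their separate detection within the same sample and depth bin (10 bins of UMIs per cell). The median ratio was 1.004 in Parse WT (1.001 to 1.013 over samples) and 1.015 in Mini (1.01 to 1.034). When the whole set of thymic cells was used in place of the class, the median was 1.101 and 1.109, and without the match on depth 1.236 and 1.18. Both values were above the ratio with class and depth matched. The 9 pairs with Arpp21, which had UMIs in 98.2 to 99.6% of these cells, cannot depart far from 1 and draw the median towards it. The expected numbers were not matched on first-round well, and levels over all cells differed between wells. Wells C11 and C12 of Parse WT 3 had Smoc1 at 159 and 221 and Slc6a19 at 24.9 and 57.7 CPM. Wells D1 and D2 of Parse WT 4 had Smoc1 at 135 and 149 but Slc6a19 at 32 and 27.2 CPM. What wells add to the ratios was not tested.

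Some pairs departed from 1 in every sample of a kit. Slc6a19 and Smoc1 were found together in 868 cells of Parse WT where 785 were expected, a ratio of 1.11 (1.05 to 1.16 over samples), and in 637 cells of Mini where 576 were expected, a ratio of 1.11 (1.06 to 1.15). Smoc1 and P2rx1 had 1.11 (1.06 to 1.17) and 1.12 (1.04 to 1.21), and Smoc1 and Adam12 had 1.08 (1.05 to 1.12) and 1.06 (1.02 to 1.09). Slc7a11 and Capn3 had 1.04 (1.02 to 1.07) and 1.06 (1.05 to 1.07). Slc6a19 and P2rx1 had the highest ratio in Parse WT, 1.16 (1.09 to 1.22), but in Mini 1.13 ranged from 0.91 to 1.32 and was over 1 in 3 of 4 samples.

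The reverse was seen for Smoc1 with Capn3, Slc7a11 and Endou in Mini, where Smoc1 and Capn3 were found together in 542 cells where 602 were expected, a ratio of 0.90 (0.85 to 0.94), Smoc1 and Slc7a11 had 0.96 (0.92 to 0.99) and Smoc1 and Endou 0.97 (0.94 to 0.99). In Parse WT the same pairs had 0.97 (0.91 to 1.01), 0.99 (0.95 to 1.01) and 0.97 (0.94 to 1.01), so that at least 1 sample was over 1 for each. Of the 45 pairs, 12 were over 1 in all samples and 0 under 1 in all samples of Parse WT, where 17.2% and 1.83% of all pairs of 5120 genes (those in at least 5% of the DP-R-like cells of each sample) were. In Mini 16 and 3 were, against 13.8% and 2.57% of all pairs of 4692 genes. Pairs that share a gene are not independent. The reverse ratios of Capn3 concerned Smoc1. In Parse WT Capn3 was found more often with Slc6a19, at 1.11 (1.05 to 1.16), and with P2rx1, at 1.09 (1.03 to 1.16). The Mini clusters showed the split of Smoc1 from Slc7a11 and Capn3 as levels. Within the Mini DP-R-like class, a cluster of 3897 cells had Slc7a11 at 683, Capn3 at 119 and Smoc1 at 305 CPM, and a cluster of 1593 cells had them at 437, 68 and 914 CPM.

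With Rag1 the ratios were 0.99 to 1.02 in both kits, but Rag1 had UMIs in 81.6 to 91.8% of these cells in Parse WT and 82 to 89.7% in Mini, which leaves little room above 1. Tox with Slc7a11 was found less often in every sample of both kits, at 0.98 (0.97 to 0.98 in Parse WT and 0.97 to 0.99 in Mini), and Rag1 with Tox likewise, at 0.99 and 0.98. Cells with UMIs of at least 9 of the 10 members numbered 106 of 13515 in Parse WT, where 59.7 were expected, and 66 of 9108 in Mini, where 31.1 were expected. The expected numbers take 1 detection rate per sample and depth bin, and depth and well still vary within a bin. Whether this or doublets, which were not removed, added to the excess was not tested. Most cells had UMIs of 2 to 4 members.

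**Figure D4:**
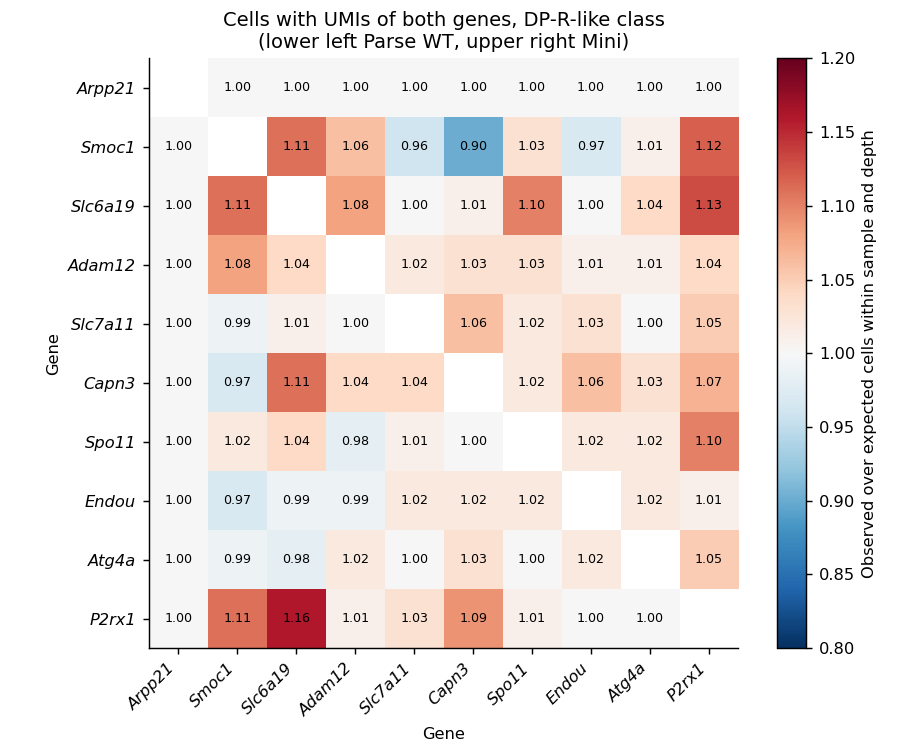
Observed over expected number of DP-R-like cells with UMIs of both genes of a pair, within sample and depth bin, with Parse WT in the lower left and Mini in the upper right. Pairs among Smoc1, Slc6a19 and P2rx1 are among the reddest in both kits, and Smoc1 with Capn3 is the bluest in Mini, at 0.90, and had 0.97 in Parse WT.

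In the 16 other samples Arpp21 was at 26 to 183 CPM (median 33), Smoc1 at 1.33 to 8.7 (median 2.38), Adam12 at 5.17 to 31.5 (median 8.73), Slc7a11 at 3.97 to 19.6 (median 7.01) and Endou at 2 to 17.2 CPM (median 6.25). Spo11 was at 1.91 to 13.3 (median 3.91), Capn3 at 1.7 to 22.4 (median 3.31), P2rx1 at 0.384 to 4.92 (median 1.02) and Slc6a19 at 0 to 2.58 CPM (median 0.97). Slc6a19 had 0 UMIs in CVS_S_6, which allows up to 0.694 CPM (3 UMIs). Rag1 was at 4.41 to 28.3 CPM. These levels were low but, Slc6a19 in that sample apart, above 0.

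Part of this signal sat in a cluster of 2320 cells that carried DP-R markers, led by Arpp21, Rag1 and Dntt, with a median of 1096.5 UMIs per cell. These cells had 2625 CPM of Arpp21, 273 CPM of Adam12, 195 CPM of Slc7a11, 108 CPM each of Smoc1 and Endou, and 394 CPM of Rag1. They made up 0.242 to 9.1% of the cells of a sample, and their share differed between wells of 1 sample. In CVS_C_1 they were 11.8%, 12.8% and 0.98% of the cells of the wells A1, A2 and A3, with Arpp21 at 161, 240 and 36.1 CPM. In CVS_C_4 they were 3.47%, 11.2% and 10.9% of the wells A10, A11 and A12, with Arpp21 at 67, 279 and 159 CPM. In CVS_C_3 they were 1.78%, 1.05% and 8.24% of the wells A7, A8 and A9, with Arpp21 at 23.5, 22.4 and 31.6 CPM. CPM weigh cells by their UMIs, and CVS_C_3 had more UMIs per cell than CVS_C_1. There 3 UMIs made 0.0739 CPM over 5751 cells, against 0.746 CPM over 2095 cells in CVS_C_1. The share of these shallow cells in the wells is thus not their share of the UMIs. What sets the wells of 1 sample apart was not tested.

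Without these cells, Arpp21 was at 19.2 to 75.6 CPM, with a median of 28.6, which is 0.74% of its Parse WT thymic mean. Rag1 had 0.705% on the same scale, Smoc1 1.24%, Adam12 1.8%, Slc7a11 1.99%, Slc6a19 2.45% and Endou 2.79%. Spo11 (3.77%), P2rx1 (4.77%) and Capn3 (6.57%) kept more, and Atg4a kept 72.9%. All members other than Atg4a were still higher in every thymic than in every other sample, as were 8.69% of 28405 genes. The choice of the members favoured this direction too.

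Among the remaining cells of these samples, some members were higher in a few clusters than in the others, counting clusters with at least 10 UMIs of the gene. Slc7a11 was at 95.7 CPM in a Neutrophil-like cluster of 1297 cells from 16 samples and at 112 CPM in a Monocyte-like cluster of 277 cells from 1 sample, where the median over the other clusters was 4.54 CPM. P2rx1 was at 10.9 CPM in the other Neutrophil-like cluster (2287 cells; median elsewhere 0.745). Endou was at 36.6 CPM in a Cycling-like cluster of 1453 cells led by Mybl1 (median elsewhere 3.7). Adam12 was at 195 CPM in an Other CD3+-like cluster of 43 cells (27 UMIs), at 46.8 CPM in an unnamed cluster of 1223 cells and at 44.9 CPM in a Treg-like cluster of 4775 cells (median elsewhere 6.09), and at 53.3 CPM in a B-like cluster of which 99% came from 1 sample, CVS_C_5, the sample with the highest Adam12 level. Slc6a19 was at 6.29 CPM, from 71 UMIs, in a cluster led by Cd8a and Cd8b1 (median elsewhere 0.541). Smoc1 reached no more than 3.93 CPM in any of these clusters (median elsewhere 2.11), with 4.16 CPM in a Monocyte-like cluster of 204 cells that had fewer UMIs of it, and Arpp21 58.4 CPM (median elsewhere 30.2).

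Atg4a was not set apart in the thymic samples. It was at 94.1 to 394 CPM in the 16 other samples (median 236), which took in 2 of the 4 Parse WT thymic samples. Its highest levels were in red cell precursors, at 3059 CPM in an Erythroid-like cluster of 257 cells led by globin genes and at 468 CPM in an Erythroid-like cluster of 2278 cells, against a median of 192 CPM over the other clusters. In some samples its level differed between wells. Wells of CVS_C_2 had 87.7, 301 and 178 CPM and wells of Mini 1-B had 91, 334 and 261 CPM, whereas wells of CVS_C_1 had 392, 393 and 398 CPM and wells of CVS_C_5 had 136 and 139 CPM. Arpp21 in the 3 wells of Mini 1-B was at 5284, 4508 and 4857 CPM. What sets the Atg4a level of a well was not tested.

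**Figure D5:**
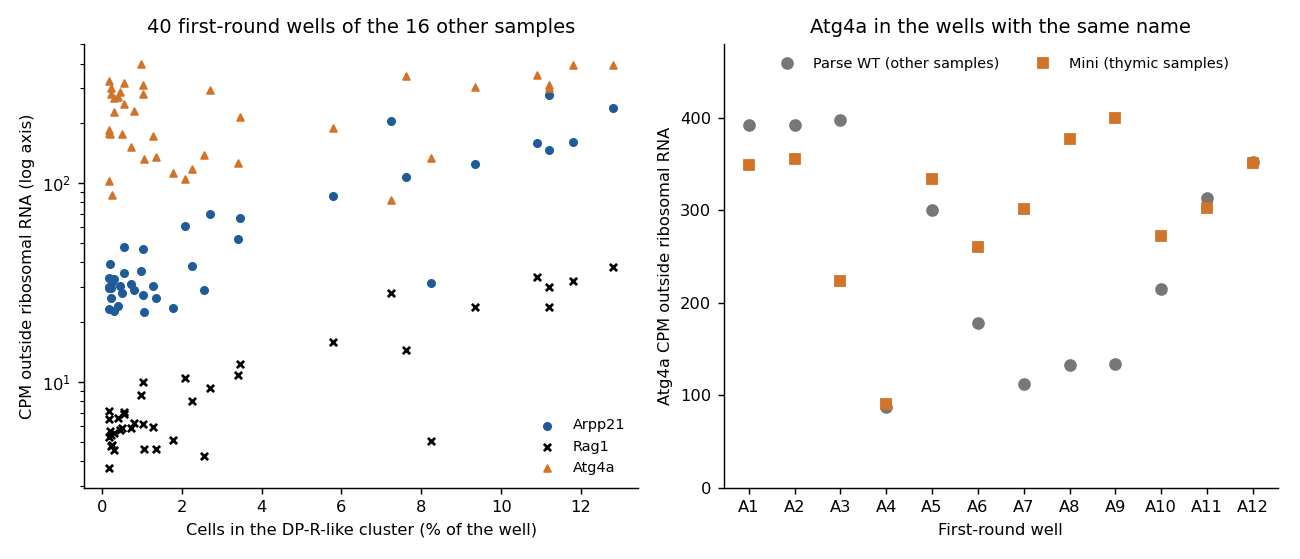
Left, CPM of Arpp21, Rag1 and Atg4a (log axis) against the percentage of DP-R-like cells in 40 wells of the 16 other samples, with 1 point per well and gene. Right, CPM of Atg4a in wells A1 to A12 of Parse WT (other samples) and of Mini (thymic samples), where well A4 is the lowest of these 12 wells in both kits at 87.7 and 91 CPM.

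Partners and relatives of the members were mostly low. Slc3a2, which pairs with Slc7a11 at the cell surface, was at 36.4 to 47.3 CPM in the Parse WT thymic samples and at 26.2 CPM in the DP-R-like class, lower than over all cells. Among 13 meiotic genes set beside Spo11, Mei4, which acts with Spo11 in break formation, was at 28.4 to 35.8 CPM in the Parse WT thymic samples and 42.5 CPM in the DP-R-like class, against a median of 2.72 CPM in the other samples. Its highest class was the DP-R-like in Mini and the Neutrophil-like (230 cells) in Parse WT. Dmc1, a meiotic recombinase, was at 10.2 to 15.5 CPM, but at 3.49 CPM in the DP-R-like class and highest in the Cycling-like class. Prdm9 was at 5.71 to 7.7 CPM, below its median of 28.9 CPM in the other samples, and the remaining meiotic genes reached no more than 2.53 CPM in the Parse WT thymic samples and 3.48 CPM (Rec8) in the Mini samples. Of the P2X channels, P2rx4 (16.1 to 19.7 CPM) and P2rx7 (5.46 to 8.22 CPM) were lower in the thymic samples than their medians of 57.3 and 37.3 CPM in the other samples. Smoc2 was at no more than 0.598 CPM, and Atg4b, at 34 to 51.2 CPM, was below Atg4a. R3hdm1, which shares the R3H domain with Arpp21, was at 282 to 360 CPM in the Parse WT and 372 to 392 CPM in the Mini thymic samples, and at a median of 269 CPM in the others.

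The genes most like each member were sought among 6060 genes by Pearson correlation of log2(CPM + 10) over the 21 Parse WT thymic clusters, which share depth and mixing, so r is a description. Arpp21 was most like Dntt (r = 0.99, and 0.99 over the 17 Mini clusters), which adds bases at receptor gene joints, then Endou (0.982 and 0.964) and Xrcc6 (0.981 and 0.982). Endou had Arpp21 and Dntt as its nearest genes. Slc7a11 was most like Rag2 (0.975 and 0.906) and Rag1 (0.975 and 0.956), Smoc1 like Gm32004 (0.982 and 0.962), P2rx1 like Tdrd5 (0.967 and 0.945), and Adam12 like Gm20098 (0.974 and 0.904) and the receptor kinase gene Ntrk3 (0.971 and 0.948). Capn3 had Spo11 as its second nearest gene (0.953 and 0.9). Spo11 and Slc6a19 shared Gm38405 (0.979 and 0.969 with Spo11, 0.977 and 0.96 with Slc6a19). Atg4a was most like Scarna2 in Parse WT (0.859), which did not hold in Mini (-0.0565).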

How the data were processed

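UMI counts per cell and gene were deposited by the authors as 1 matrix per library, with a table of cells and a list of genes. The authors processed the reads of 9 Parse WT and 2 Mini sublibraries with split-pipe and an index of the mm10 reference from Ensembl, and combined the sublibraries of a library. No source used here states the versions, and the 10x data were not analysed here. The cell tables name the tissue sample and first-round well of each cell (unit: a name, no number). The numbers of the thymic samples follow those tables.

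Kept cells had between 500 and 25000 UMIs, of which mitochondrial ones were no more than 15%. CPM leave out the ribosomal RNAs Rn18s-rs5, mt-Rnr1 and mt-Rnr2, and are sums per sample, class or well. Cells were clustered per library part (scanpy 1.11.5, leidenalg 0.10.2, 2000 variable genes without the members and centred within wells, 30 components, 20 neighbours, resolution 1). A cluster was named from at least 3 fixed markers raised 1.25-fold, and the name "X-like" rests on these. Doublets were not removed. The stage axis needed at least 10 UMIs of the 10 early and 15 late genes and under 3 UMIs each of the cycling and the other-cell lists. Genes with at least 10 UMIs entered the background shares. A median and range is given over the 16 samples without a group. Groups were not compared by a test, because the members were chosen from these cells, kit and animals are confounded, and lobes share an animal. Functions were checked on simulated data.

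The genes named are the members, Rag1 and Tox, the markers, relatives fixed in a list, and the 3 most similar genes per member. Members and lists were chosen with earlier results of these data known. Intervals over samples cover 4 lobes of 2 mice, and levels of a few UMIs carry counting error. Some genes of these lists are not reported here.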

Additional observations from a re-analysis of the deposited data

Results flagged for a closer look

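In groups of 4 samples, a sample was singled out when its gap to the nearest other sample, divided by the range of the group, was above the 95% critical value of Dixon's test. Of 72 groups of levels and positions, 3 were singled out, where chance alone gives about 1 in 20. The position of Adam12 in Parse WT 1 was 4.11, while the other 3 Parse WT samples lay at 4.44 to 4.46. In the same sample Tox was at 7.25, with the others at 6.88 to 6.90. The position of Capn3 in Mini 2-A was 4.67, with the other Mini samples at 4.42 to 4.45. All 3 concern the stage axis, and the member levels singled out no sample. Without Parse WT 1 the mean position of Adam12 was 4.45.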

How the results depend on the processing

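No paired analysis across the kits was possible because the kits received lobes of different mice, and no result comes from a test. The count of members higher in all thymic samples was 9 under all 9 alternatives, including the cells of the DP-R-like cluster left out of the other samples, an alternative chosen after seeing the data. Beside it, the share of all genes was 6.3% (no filter on low counts) to 12.1% (median-of-ratios size factors), against 8.7% in the main setting. The count without overlap between kits was 6 with median-of-ratios size factors (Slc7a11 lost), beside 14.6% of all genes, and 7 to 8 when 1 sample was left out, beside 16.7 to 27.5% of all genes (highest without Parse WT 1), against 14.3% with all samples. Neither count can fall when a sample or the filter on low counts is left out, so those settings do not probe them. The class count was 9 under all 8 alternatives in Mini and 7 to 9 in Parse WT. In Parse WT it lost Spo11 in thinned cells, Slc6a19 and Endou in cells of 1000 to 10000 UMIs, Endou without Parse WT 1 and Smoc1 without Parse WT 2. The count between Rag1 and Tox was 6 to 10 in Parse WT (8 to 10 with 1 sample left out) and 7 to 10 in Mini with 1 sample left out, and fell to 4 in Mini (Arpp21, Adam12, Capn3 and Atg4a) when positions used the share of thinned cells with a UMI. The cause was not tested. The median co-detection ratio without classes was 1.101 in Parse WT and 1.109 in Mini, and from the sample only, without depth, 1.236 and 1.18. With 1 sample left out it was 1.004 to 1.011 in Parse WT, highest without Parse WT 2, and 1.013 to 1.023 in Mini. The depth limits Slc6a19, Capn3 and P2rx1, which thinned cells carried in at most 10.3% of a sample's DP-R-like cells.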
